A study of Mus musculus with 12 samples.

Results

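The genes described here are 10 core genes of the circadian clock in mouse liver: Clock, Npas2, Per1, Per2, Per3, Cry1, Cry2, Nr1d1, Nr1d2 and Dbp. They were taken by symbol from the 16821 genes listed for each of 12 mice, and all 10 were found (NCBI gene 12753, 18143, 18626, 18627, 18628, 12952, 12953, 217166, 353187 and 13170, in the same order). Liver RNA was sequenced from adult male C57BL/6J mice, 6 sedentary control (Con) mice and 6 chronic exercise (Exe) mice given 6 weeks of moderate treadmill running, with a library per mouse. Both groups lived in the same room under a light and dark cycle with free access to food. The study's methods place the animal procedures in the dark phase and the killing of the mice within a day of the last run, but no hour of death per mouse was given in the sources used here. The values are FPKM (fragments of a gene divided by its transcript length and by the fragments mapped in the library). In whole liver, fewer cells of a type and less RNA per cell cannot be told apart.

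The clock of a cell is a loop of transcription and repression that takes about a day. CLOCK or its relative NPAS2 pairs with BMAL1, the product of Arntl, and the pair activates the Per and Cry genes, the Nr1d genes and Dbp through E-boxes. PER and CRY proteins then repress this pair, and the REV-ERB proteins, products of Nr1d1 and Nr1d2, repress Arntl, Npas2, Clock and Cry1. In liver these RNAs peak one after another: Arntl, Npas2 and Clock around the end of the night and dawn, Nr1d1 and then Dbp during the day, Nr1d2, Per3, Per1, Cry2 and Per2 around dusk, and Cry1 late in the night. The RNA levels of a liver therefore depend on the hour at which it was taken, and ratios between genes with different peaks can be read as a readout of phase.

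The elements through which the loop acts were looked up in the RefSeq promoters of GRCm38.p6, which cover 250 bases before to 50 bases after each start. Of the 10 genes, 9 (all but Per2) had an entry, with 12 entries in all. Each element was searched on both strands, and the matches did not overlap. The E-box CACGTG was in 7.15% of all 32851 promoters and in those of Cry1 and Per1. The D-box, the site of DBP and its relatives, was searched as TTATGTAA or TTATGCAA. It was in 1.66% of all promoters and in those of Per1 and Per3. The element of the ROR and REV-ERB proteins, searched as AA, any base and then TAGGTCA, was in 0.219% of all promoters and in 0 of the 12 entries, and the cAMP element TGACGTCA was in 1.79% and 0. The matches in Per1, Per3 and Cry1 lie before the start and are shown with the matched letters in capitals:
Per1 E-box, chr11:69098763-69098808, plus strand: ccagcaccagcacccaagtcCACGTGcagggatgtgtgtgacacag
Per1 D-box, chr11:69098905-69098948, plus strand: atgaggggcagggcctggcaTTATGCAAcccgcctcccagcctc
Per3 D-box farther from the start, chr4:151044843-151044890, minus strand: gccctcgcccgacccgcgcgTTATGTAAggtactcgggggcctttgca
Per3 D-box nearer to the start, chr4:151044796-151044843, minus strand: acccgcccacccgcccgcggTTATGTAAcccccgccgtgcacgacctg
Cry1 E-box, chr10:85185089-85185134, minus strand: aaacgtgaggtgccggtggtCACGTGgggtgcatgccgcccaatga
The matches begin 166 and 24 bases before the start in Per1, 205 and 158 bases before it in Per3, and 60 bases before it in Cry1. Arntl, which is on a list of clock regulators used below, holds the ROR and REV-ERB element just after a start (chr7:113207533-113207552, plus strand): gcagaAAGTAGGTCAgggac. These matches are letters only, and no binding was measured. Other spellings and bases outside these promoter entries were not searched, so a gene without a match may still have the element.

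FPKM are per length, so the levels of the 10 genes can be set side by side. Over the 12 mice Dbp was highest with a mean of 63.7 ± 25.1 FPKM (SD, n = 12), followed by Nr1d1 with 48.8 ± 19.3 FPKM. Nr1d2 (15.1 ± 2.23), Cry2 (10.1 ± 1.72), Per2 (5.69 ± 2.05), Per1 (5.32 ± 2.62), Per3 (4.18 ± 1.84), Clock (2.77 ± 0.482) and Cry1 (2.22 ± 1.08) came next in FPKM. Npas2 was lowest, between 0 and 0.31 FPKM, and was listed at 0 in Con 3. Neighbours in this order were compared within mice by an exact sign-flip test over 9 pairs. Dbp and Nr1d1 did not differ beyond their spread (Dbp higher in 8 of 12 mice, adjusted exact p = 0.173), and neither did Per2 and Per1 (9 of 12, 0.213), Per1 and Per3 (8 of 12, 0.185), Per3 and Clock (8 of 12, 0.172) or Clock and Cry1 (11 of 12, 0.0835). The other 4 steps in FPKM passed: Nr1d1 over Nr1d2 in 11 of 12 mice (adjusted exact p = 0.0022), and Nr1d2 over Cry2, Cry2 over Per2 and Cry1 over Npas2 in 12 of 12 mice each (adjusted exact p = 0.00146).

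The activators Clock and Npas2 were at like levels in both groups. Clock ranged from 2.32 to 3.39 FPKM across Con mice (median 2.52) and from 2.28 to 3.43 FPKM across Exe mice (median 2.71). It was above 3 FPKM in Con 2, Con 4, Exe 3, Exe 4 and Exe 5, and below 2.6 FPKM in the other mice, so both groups held high and low mice. Npas2 ran from 0 to 0.23 FPKM in Con mice (median 0.11) and from 0.05 to 0.31 FPKM in Exe mice (median 0.065). Its highest values were in Exe 3 (0.31), Con 2 (0.23) and Exe 5 (0.18 FPKM), which are 3 of the 5 mice with high Clock. A gene at such levels is read on very few fragments.

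Of the REV-ERB genes and Dbp, the daytime genes Nr1d1 and Dbp spanned a wide range. Nr1d1 ranged from 34.6 to 89.6 FPKM across Con mice (median 49.0) and from 13.4 to 60.7 FPKM across Exe mice (median 50.3). The highest value was in Con 4 and the lowest in Exe 6, and the next lowest mouse, Exe 1, held 32.2 FPKM. Nr1d2 was much tighter, ranging from 13.4 to 17.8 FPKM across Con mice (median 14.6) and from 11.5 to 17.2 FPKM across Exe mice (median 16.0). Dbp, a transcription factor of the PAR bZIP family that binds D-boxes, ran from 35.4 to 98.1 FPKM in Con mice (median 78.6) and from 23.5 to 80.0 FPKM in Exe mice (median 56.5). Con 2, Exe 3 and Exe 6 were the lowest mice for Dbp, and the groups overlapped for all 3 genes.

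The Per genes encode the repressors that peak around dusk. Per1 ranged from 2.13 to 10.5 FPKM across Con mice (median 6.50) and from 1.81 to 7.06 FPKM across Exe mice (median 4.46). Per2 ranged from 2.82 to 8.71 FPKM across Con mice (median 5.52) and from 2.36 to 9.29 FPKM across Exe mice (median 5.53). Exe 3 was the lowest of all 12 mice and Con 4 the next lowest for both genes. Per3 ran from 2.14 to 5.04 FPKM in Con mice (median 4.25) and from 1.41 to 6.92 FPKM in Exe mice (median 4.77). Exe 1, Exe 2 and Exe 6 were above every Con mouse for Per3, while Exe 3 was below every Con mouse.

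Of the Cry genes, whose products are the partners of the PER proteins, Cry1 held 1 mouse far from the rest. Cry2 ranged from 7.30 to 12.8 FPKM across Con mice (median 10.7) and from 7.31 to 11.8 FPKM across Exe mice (median 10.3). Cry1 ranged from 1.44 to 2.34 FPKM across Con mice (median 1.78) and from 1.29 to 5.38 FPKM across Exe mice (median 2.13). Exe 6 held 5.38 FPKM of Cry1, and the next highest of the 12 mice, Exe 4, held 2.83 FPKM.

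**Figure D1:**
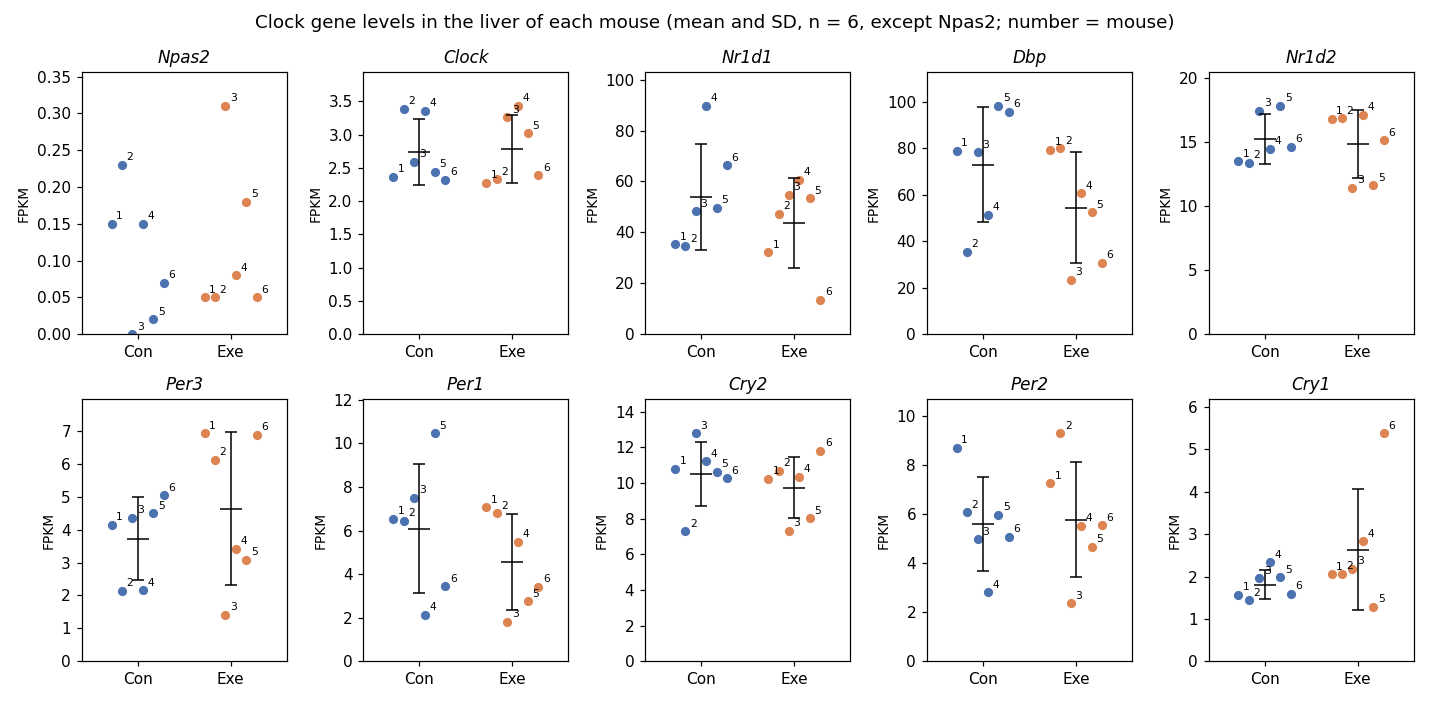
FPKM (y axis, from 0) of each clock gene in the 6 Con and 6 Exe mice (x axis), with a point per mouse labelled by its number and bars for the mean and SD of the group (no bars for Npas2, listed at 0 in Con 3). The groups overlap for each gene, Exe 3 is lowest for Dbp, Nr1d2, Per1, Per2 and Per3, and Exe 6 stands out with 13.4 FPKM of Nr1d1 and 5.38 FPKM of Cry1.

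Exe and Con mice were then compared on log2(FPKM + 1) with limma (linear model with moderated variances, Benjamini-Hochberg adjustment) over the 10241 genes with at least 1 FPKM in at least 6 mice. On this scale the fold change of low genes is understated. Npas2 did not reach this level, and 9 of the 10 clock genes were tested. Of these, 0 had an adjusted p of 0.05 or less whatever the fold change, where 0.0% of all genes tested did, and 0 passed an unadjusted p of 0.05, where 6.21% of all genes tested did. The 0.0% describes this fit on FPKM. The study's own analysis used DESeq and reported differentially expressed genes between these groups. Exe means were higher for 4 of the 9 and lower for 5 (median log2 fold change -0.04), and 57.5% of all genes tested were higher (median 0.02). None of the 9 had groups that did not overlap, against 0.254% of all genes tested.

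On the log2(FPKM + 1) scale the largest differences in mean were those of Dbp and Nr1d1, whereas with a pseudocount of 0.1 those of Cry1 (0.40) and Per1 (-0.40) were past that of Nr1d1 (-0.38). Dbp averaged 72.9 ± 24.8 FPKM over the Con mice and 54.4 ± 23.8 FPKM over the Exe mice (SD, n = 6 in each group). Its log2 fold change was -0.47 (95% confidence interval -1.16 to 0.22, limma adjusted p = 0.8997), and without Exe 3 it was -0.26. Nr1d1 averaged 54.0 ± 21.0 FPKM over the Con mice and 43.6 ± 17.7 FPKM over the Exe mice, with a log2 fold change of -0.37 (interval -1.08 to 0.35). The Nr1d1 value rested on Exe 6, without which it was -0.07, and without Con 4 it was -0.20. Per1 had a log2 fold change of -0.33 (interval -1.03 to 0.36), which was -0.16 without Exe 3, -0.17 without Con 5 and -0.54 without Con 4. Cry1 had one of 0.30 (interval -0.11 to 0.71), which was 0.12 without Exe 6. Per3 had a log2 fold change of 0.18 (interval -0.43 to 0.79), and leaving out a mouse gave 0.06 to 0.40. Cry2 (-0.10), Nr1d2 (-0.04), Clock (0.01) and Per2 (0.01) were closest to 0.

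In the exact two-sided permutation test over all divisions of the 12 mice, 0 of the 9 had a p under 0.05, where 6.19% of all genes tested did. It gave the lowest p for Cry1 (exact p = 0.190) and the highest for Per2 (exact p = 0.972). For Npas2 it gave an exact p of 0.768, with a difference of 0.02 on the log2 scale. The intervals are wide for Dbp, Nr1d1 and Per1, and a log2 fold change of -1 lies inside them. Those of Clock, Nr1d2 and Cry2 lie within 0.37 of 0 on the log2 scale, that is, between -0.21 and 0.24, between -0.29 and 0.20, and between -0.37 and 0.17.

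**Figure D2:**
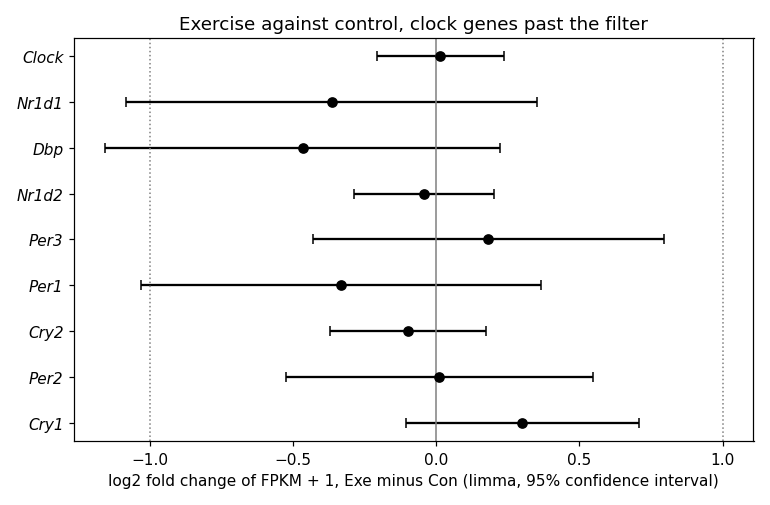
Log2 fold change of FPKM + 1 (x axis, Exe minus Con) of the 9 clock genes that passed the filter on low values (y axis), with points for the limma estimate and bars for its 95% confidence interval. Dotted lines mark a log2 fold change of 1 in either direction. Each interval includes 0, and those of Dbp (-1.16 to 0.22), Nr1d1 and Per1 are the widest.

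Markers of other cell types and of the state of the liver were summed per mouse for these comparisons. All 6 hepatocyte markers were present in every mouse, with sums from 64240 to 81361 FPKM in the Con group and from 71777 to 88953 FPKM in the Exe group. This sum was higher in Exe mice, with an exact permutation p of 0.026 that is not adjusted over the 9 lists, and the part of this shift in the clock gene values was not tested. All genes of the lists for red blood cells (5 genes), Kupffer cells (5), endothelial cells (4), stellate cells (3), bile duct (4) and neutrophils (5) were above 0 in at least 1 mouse, and their summed levels overlapped between groups. The sum of 7 acute-phase genes ran from 2378 to 30096 FPKM in Con mice and from 2553 to 29566 FPKM in Exe mice, highest in Con 1 and Exe 5. With this state as a covariate, or without Con 1 and Exe 5, 0 of the 9 clock genes passed an adjusted p of 0.05 from limma. In both settings 0 of all genes tested passed, so this count is not particular to the clock genes.

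The spread between mice of the same group was large for the clock genes. The SD of log2(FPKM + 1) within groups was 0.67 for Nr1d1, 0.65 for Per1, 0.64 for Dbp, 0.57 for Per3 and 0.50 for Per2. These values were above those of 99.0%, 98.9%, 98.9%, 98.4% and 97.7% of the 10241 genes tested. Cry1 (0.37, above 94.97%), Cry2 (0.24, above 85.3%), Nr1d2 (0.22, above 80.7%) and Clock (0.19, above 73.6%) followed. Over the 9 genes the median SD was 0.50, where it was 0.14 over all genes tested, and 9 of the 9 were above the latter. From the lowest to the highest mouse, Nr1d1 spanned a factor of 6.67, Per1 5.78, Per3 4.91, Dbp 4.18, Cry1 4.17 and Per2 3.94, whereas Cry2, Nr1d2 and Clock spanned 1.75, 1.56 and 1.5. The SD of Cry1 was 0.17 in Con mice and 0.50 in Exe mice, and the SD pooled over both groups was 0.22 without Exe 6. For Nr1d1 the pooled SD was 0.45 without Exe 6, so its place at the top rested on that mouse. With a pseudocount of 0.1 the order changed, with Per1 at 0.79, Per3 at 0.73, Nr1d1 at 0.69 and Dbp at 0.66.

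Several of the genes were extreme in the same mice. Exe 3 was lowest of the 12 mice for 5 of the 10 genes (Dbp, Nr1d2, Per1, Per2 and Per3) and highest for Npas2, with z scores of -1.9, -1.7, -1.6, -2.0 and -1.8 for the former and 2.0 for the latter (deviations from the mean of the 12 mice in units of their SD). Con 4 was highest for Nr1d1 (z = 1.5), with Per1 at -1.4, Per2 at -1.6 and Per3 at -1.1. Exe 6 had the lowest Nr1d1 (z = -2.5) and the highest Cry1 (2.7), and Per3 at 1.3 and Dbp at -1.4. Of the dusk genes, Exe 3 had all 5 low, with Cry2 at -1.7. Exe 5 was also below the mean for all 5, with Nr1d2 at -1.6, Cry2 at -1.2, Per1 at -1.0, Per3 at -0.5 and Per2 at -0.4. Con 4 had the 3 Per genes low but not Cry2 (0.6) or Nr1d2 (-0.2), and Exe 6 had the late-night gene Cry1 high and the daytime gene Nr1d1 low. Con 5 was highest for 3 genes, Dbp, Nr1d2 and Per1. The immediate early list (6 genes, among them Fos and Egr1) was highest in Con 4 (103.1 FPKM in sum) and Exe 3 (90.4 FPKM), and between 28.7 and 65.6 FPKM in the other 10 mice. Red blood cell markers were at 902.9 FPKM in Con 4 and 911.8 FPKM in Exe 3, below the 1290 FPKM of Exe 5. Neutrophil markers were highest in Exe 3 (50.4 FPKM) and Exe 5 (48.25 FPKM) but low in Con 4 (11.6 FPKM). The part of the immediate early genes and of blood in these patterns was not tested.

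**Figure D3:**
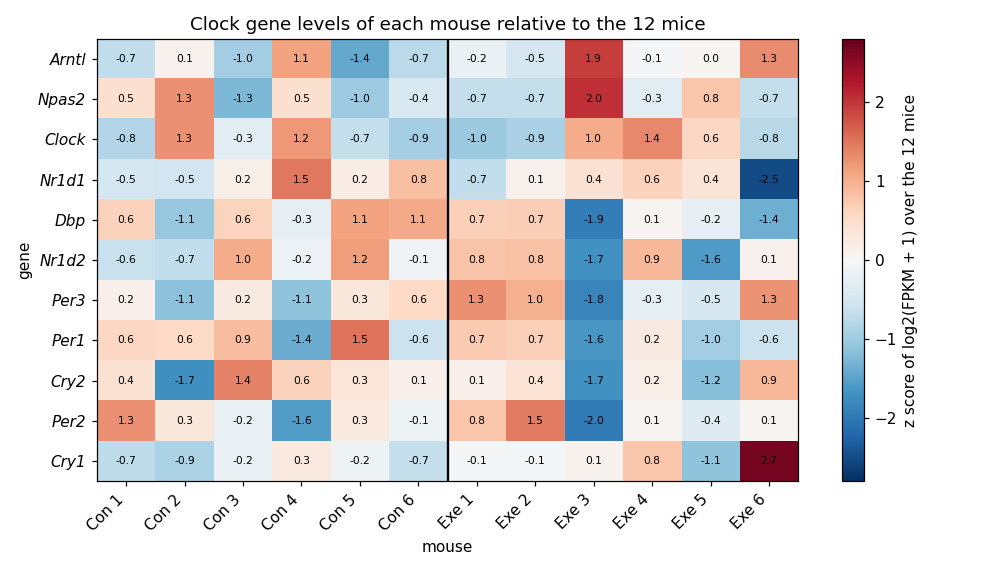
Z score of log2(FPKM + 1) over the 12 mice (colour and number) for Arntl and the 10 clock genes (y axis, in the order of their usual peaks in liver) in each mouse (x axis, Con left of the line and Exe right of it). Exe 3 has Per2 at -2.0 and Npas2 at 2.0, and Exe 6 has Nr1d1 at -2.5 and Cry1 at 2.7.

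Relations between genes across the 12 mice were measured for 8 pairs, with permutation tests and Benjamini-Hochberg adjustment over the 8. Per1 and Per2 varied together, with Pearson's r of 0.767 (permutation p = 0.00288, adjusted 0.023) and Spearman's rho of 0.664 (p = 0.0217, adjusted 0.133). The relation rested on Con 4 and Exe 3, without which r was 0.464 (permutation p = 0.178). The adjusted p was also over 0.05 without Con 4 (0.067), Exe 1 (0.0502) or Exe 3 (0.184) alone. Within groups r was 0.696 in Con mice (exact permutation p = 0.133, n = 6) and 0.912 in Exe mice (exact permutation p = 0.00556, n = 6).

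Dbp and Npas2 varied in opposite directions. Their r was -0.702 (permutation p = 0.0109, adjusted 0.0436) and their rho -0.614 (permutation p = 0.0365, adjusted 0.133). Without Exe 3 and Exe 6, the farthest mice in Dbp, r was -0.817 (permutation p = 0.00342). It was -0.81 in Con mice (exact permutation p = 0.05, n = 6) and -0.663 in Exe mice (exact permutation p = 0.125, n = 6). The adjusted p of this relation was above 0.05 when any of 9 of the 12 mice was left out, Con 1, Exe 4 and Exe 6 being the exceptions. Without Exe 3 alone r was -0.51 (adjusted permutation p = 0.272).

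Dbp and Per3 had an r of 0.563 (permutation p = 0.0575, adjusted 0.115) and a rho of 0.587 (permutation p = 0.0497, adjusted 0.133). In Con mice r was 0.944 (exact permutation p = 0.00833, n = 6) and in Exe mice 0.565 (exact permutation p = 0.231, n = 6). Without Exe 6, which combines low Dbp with high Per3, it was 0.888 (adjusted permutation p = 0.00112), and without Exe 3 it was 0.324. Npas2 and Clock had an r of 0.658 (permutation p = 0.0211, adjusted 0.0562) and a rho of 0.508 (permutation p = 0.0935, adjusted 0.187). Without Con 2 and Exe 3 their r was 0.481 (permutation p = 0.166), and it was 0.653 in Con mice and 0.661 in Exe mice (exact permutation p = 0.203 and 0.183, n = 6).

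The other 4 pairs did not pass. Nr1d1 and Dbp, neighbours in peak time, had an r of 0.296 (permutation p = 0.356, adjusted 0.474) and a rho of 0.056 (permutation p = 0.87), and r was -0.08 without Exe 6. The paralogs Nr1d1 and Nr1d2 had an r of -0.063 (permutation p = 0.855) and a rho of -0.091 (permutation p = 0.783). For Nr1d1 and Npas2, r was 0.179 and rho 0.268 (permutation p = 0.577 and 0.396), and for Cry1 and Npas2 they were -0.297 and -0.215 (permutation p = 0.352 and 0.501). Without the 2 mice farthest in the first gene, r was 0.016, -0.031, -0.075 and -0.137 for these 4 pairs in turn. Within Con and within Exe mice, none of the 4 passed an exact permutation p of 0.05, the lowest being 0.308. Of all 45 pairs of the 10 genes, 13 had an r above 0.5 and 11 an r below -0.5, as a description. The share among pairs of all genes was not computed, so these counts do not set the clock genes apart. Pairs with Npas2 rest on values between 0 and 0.31 FPKM.

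Npas2 was too low to carry much weight, so Arntl, the gene of BMAL1 and on the list of clock regulators, was set beside the clock genes after the values had been seen. Arntl ranged from 0.38 to 2.58 FPKM across Con mice (highest in Con 4) and from 0.97 to 3.86 FPKM across Exe mice (highest in Exe 3, then Exe 6 with 2.87 FPKM). Its group means were 1.11 ± 0.805 and 1.93 ± 1.16 FPKM (SD, n = 6), and its log2 fold change was 0.47 (limma adjusted p = 0.849). Over 4 added pairs, Arntl and Dbp had an r of -0.899 (permutation p = 0.00018, adjusted 0.00072) and a rho of -0.902 (permutation p = 0.00014, adjusted 0.00056). The sign was negative in both groups, with -0.762 in Con mice (exact permutation p = 0.0625, n = 6) and -0.981 in Exe mice (exact permutation p = 0.00139, n = 6). Without Exe 3 and Exe 6 it was -0.748 (permutation p = 0.0127). The adjustment over the 4 pairs does not cover the choice of Arntl after the values had been seen.

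Arntl and Npas2, both targets of the REV-ERB proteins, had an r of 0.627 (permutation p = 0.0288, adjusted 0.0577) and a rho of 0.663 (permutation p = 0.0215, adjusted 0.043). Without Exe 3 and Exe 6 r was 0.642 (permutation p = 0.0424), and within groups it was 0.699 in Con and 0.628 in Exe mice (exact permutation p = 0.117 and 0.125, n = 6). Arntl and its partner Clock had an r of 0.509 and a rho of 0.462 (permutation p = 0.0926 and 0.134). That r was 0.703 without Exe 3 and Exe 6, 0.847 in Con mice and 0.28 in Exe mice (permutation p = 0.0193, then exact permutation p = 0.0486 and 0.487, n = 6). Arntl and Nr1d1, the gene of its repressor, had an r of -0.145 and a rho of -0.014 (permutation p = 0.652 and 0.974). The sign of that r was positive without Exe 3 and Exe 6 (0.365, permutation p = 0.299) and in Con mice (0.435, exact permutation p = 0.399, n = 6), and it was -0.302 in Exe mice (exact permutation p = 0.619, n = 6).

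**Figure D4:**
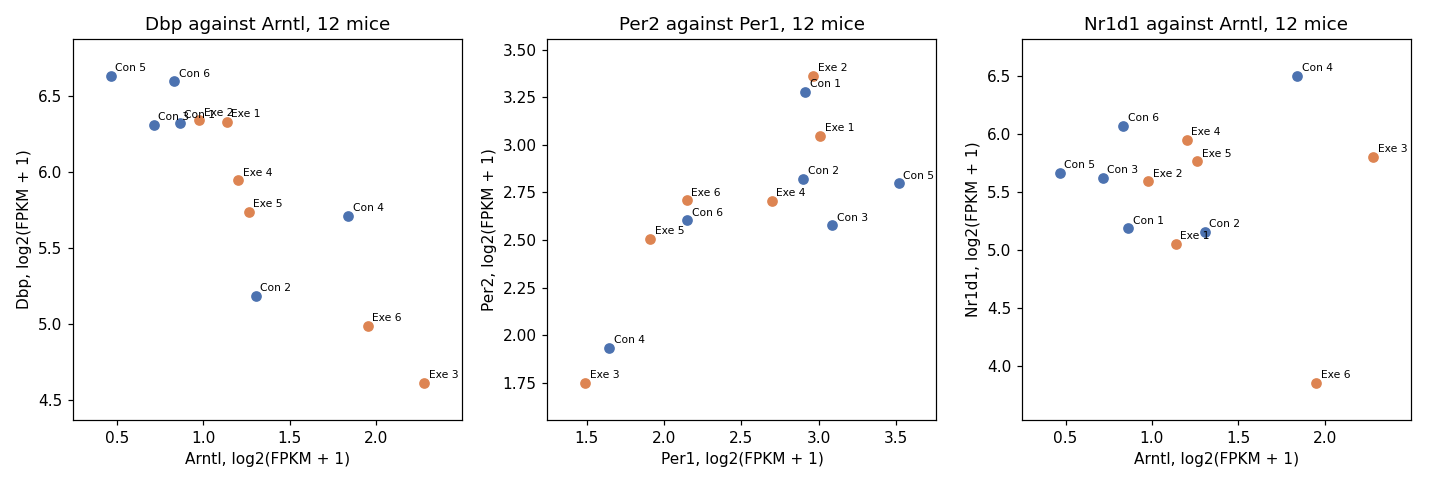
Log2(FPKM + 1) of gene pairs in the 12 mice (a labelled point per mouse, Con blue and Exe orange): Dbp against Arntl, Per2 against Per1, and Nr1d1 against Arntl. Dbp is lower where Arntl is higher in both groups (r = -0.899), Con 4 and Exe 3 lie apart at low Per1 and Per2, and Exe 6 alone combines high Arntl with low Nr1d1.

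Ratios between genes of different peak times were taken per mouse as a readout of phase that does not depend on the scaling of the mouse. Of 8 ratios, 0 differed between groups after Benjamini-Hochberg adjustment over the 8 (exact permutation tests, 0.01 FPKM added to both genes). Cry1/Cry2 came closest. It lay between 0.146 and 0.209 in Con mice, highest in Con 4, and between 0.162 and 0.456 in Exe mice, where Exe 3, Exe 4 and Exe 6 were above every Con mouse. The difference in mean log2 ratio was 0.52 (interval -0.01 to 1.05, exact permutation p = 0.0455, adjusted 0.364), and without Exe 6 it was 0.34.

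Per2/Nr1d1, dusk over day, ran from 0.0316 in Con 4 to 0.413 in Exe 6, a factor of 13.1 between mice. Con mice lay between 0.0316 and 0.246 and Exe mice between 0.0432 and 0.413, with a difference in mean log2 ratio of 0.38 (interval -1.04 to 1.80, exact permutation p = 0.563). That difference was 0.04 without Con 4, 0.06 without Exe 6 and 0.71 without Exe 3. Per3/Cry1, dusk over late night, ran from 0.645 in Exe 3 to 3.36 in Exe 1, and its difference was -0.21 (interval -1.23 to 0.81, exact permutation p = 0.649). Cry1/Per2 was highest in Exe 6 (0.971), Exe 3 (0.928) and Con 4 (0.83), and at 0.514 or less in the other mice, a difference of 0.41 between groups (interval -0.68 to 1.49, exact permutation p = 0.416). Leaving out a mouse moved the latter to between 0.18 (without Exe 6) and 0.67 (without Con 4), and it was 0.20 without Exe 3 and 0.23 without Con 1.

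Nr1d2/Clock ran without a clear break from 3.51 in Exe 3 to 7.35 in Exe 1. Con 2, Con 4, Exe 3 and Exe 5 were the lowest mice (3.51 to 4.31), so both groups held low and high mice. Its difference in mean log2 ratio was -0.07 (interval -0.60 to 0.46, exact permutation p = 0.777). Per1/Dbp differed by 0.07 (interval -0.79 to 0.94, exact permutation p = 0.838). Nr1d1/Npas2 and Dbp/Npas2 differed by -0.88 and -0.98 (exact permutation p = 0.329 and 0.387), and the highest value of both, in Con 3, was set by the 0.01 FPKM added to a Npas2 value listed at 0. Without Con 3 the differences were -0.32 and -0.37.

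With Arntl in place of Npas2, again chosen after the values had been seen, Nr1d1/Arntl lay between 23.4 and 127.4 in Con mice and between 4.67 and 48.2 in Exe mice. It was lowest in Exe 6 and Exe 3 (14.2). The difference in mean log2 ratio was -1.25 (interval -2.70 to 0.19, exact permutation p = 0.0801, adjusted 0.152 over the 2 ratios), and without Exe 6 it was -0.79. Dbp/Arntl ran from 19.8 to 251.6 in Con mice and from 6.07 in Exe 3 to 81.6 in Exe mice, a difference of -1.35 (interval -3.26 to 0.55, exact permutation p = 0.152) that was -0.90 without Exe 3. Neither ratio passed, and the groups overlapped in both.

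**Figure D5:**
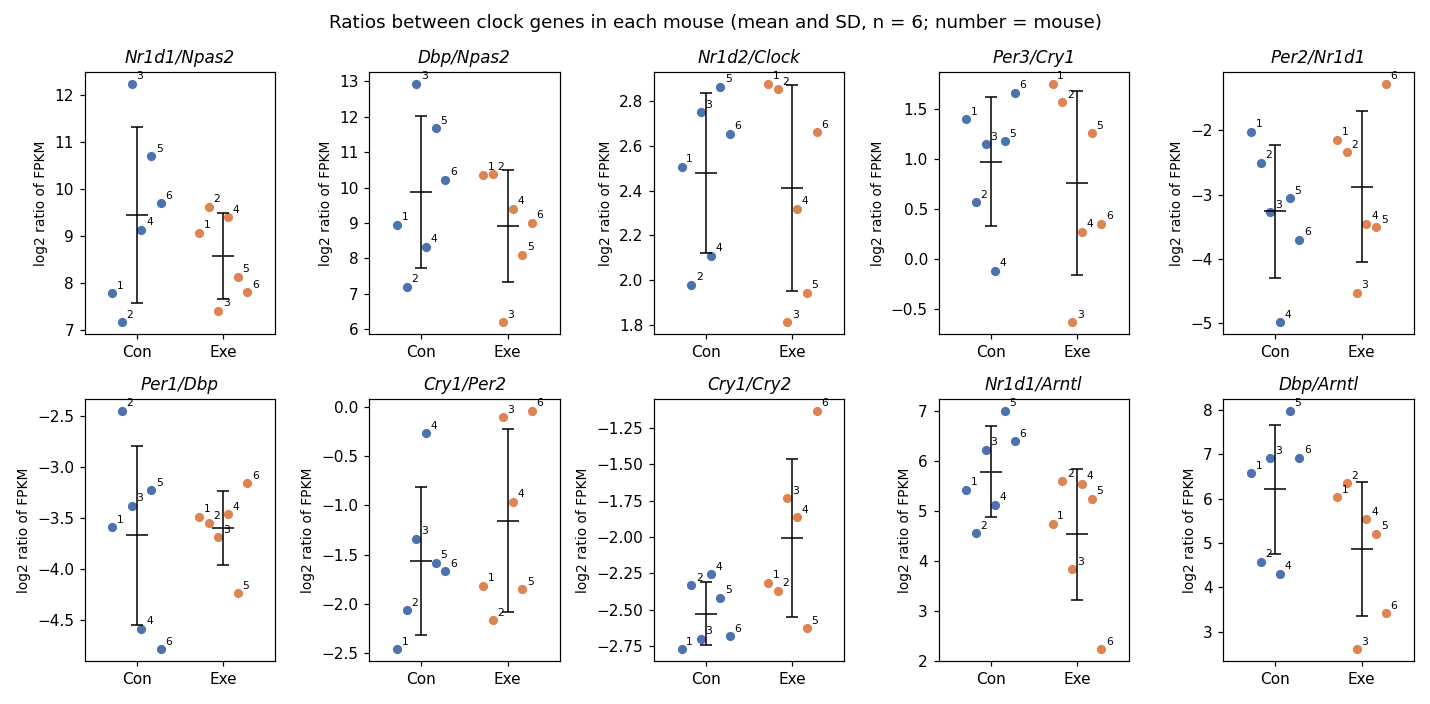
Log2 ratio of FPKM (y axis, its range differs between panels and does not start at 0) for 8 ratios between clock genes and 2 ratios to Arntl, with a numbered point per mouse in the Con and Exe groups (x axis) and bars for mean and SD (n = 6). The groups overlap in each panel, Exe 6 is highest in Cry1/Cry2 and Per2/Nr1d1, and Con 4 lies with Exe 3 at the low end of Per3/Cry1 and Per2/Nr1d1.

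Genes that regulate the clock beside these 10 were followed as a list of 21, of which 20 were in the files and 17 were tested. In limma 1 of the 17 passed an unadjusted p of 0.05 (5.88%, against 6.21% of all genes tested) and 0 an adjusted p of 0.05, and Exe means were higher for 8 and lower for 9, the median log2 fold change being -0.0013. The count at the unadjusted p was 0 without Con 1, Con 5 or Con 6 and with a stricter filter, 2 without Con 2, Exe 1, Exe 2 or Exe 4, 3 without Con 4, with no filter, with quantile normalization or with the acute-phase covariate, and 4 without Exe 5. Over all genes the count at that p was 529 to 608 in the settings with 0, and 418 to 728 in those with 2. It was 602 to 898 in those with 3, and 905 without Exe 5. The genes tested can change with the setting and shares were not computed, so these counts do not set the list apart. With all mice the 1 gene of the 17, lower in Exe mice as were 1.94% of all genes tested at that p, was Bhlhe41, a repressor at E-boxes, averaging 1.26 ± 0.429 FPKM over Con mice and 0.713 ± 0.37 FPKM over Exe mice (log2 fold change -0.40, adjusted p = 0.793). The most abundant of the list, the D-box factor Tef (39.7 ± 7.92 and 40.3 ± 10.8 FPKM), the RNA-binding protein Nono (40.3 ± 1.38 and 37.7 ± 1.80 FPKM) and the repressor Bhlhe40 (39.5 ± 8.25 and 31.9 ± 13.8 FPKM), had log2 fold changes of -0.0013, -0.09 and -0.40 (adjusted p = 0.9999, 0.816 and 0.896 from limma). The largest log2 fold change of the 17 was that of Ciart, at -1.05 (interval -2.11 to 0.01, limma adjusted p = 0.800). Ciart averaged 8.85 ± 4.99 FPKM over Con mice and 3.86 ± 3.35 FPKM over Exe mice, and the groups overlapped.

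Genes that the clock is known to drive in liver were followed as a list of 16, of which 15 were tested. In limma 1 of the 15 passed an unadjusted p of 0.05 (6.67%, against 6.21% of all genes tested) and 0 an adjusted p. Exe means were higher for 6 and lower for 9, the median log2 fold change being -0.12. The count at the unadjusted p was 0 without Con 1, without Con 6 or without Con 1 and Exe 5 together, and 3 without Exe 3. Over all genes it was 536 without Con 1, 529 without Con 6, 735 without Con 1 and Exe 5, and 650 without Exe 3. Shares per setting were not computed, so these counts do not set the list apart. With all mice the 1 gene of the 15, higher in Exe mice as were 4.27% of all genes tested at that p, was Avpr1a, a vasopressin receptor of hepatocytes, averaging 9.37 ± 1.30 FPKM over Con mice and 11.8 ± 2.25 FPKM over Exe mice (log2 fold change 0.29, adjusted p = 0.793). The 3 most abundant were Upp2 (uridine phosphorylase, 167.0 ± 53.3 and 143.9 ± 53.2 FPKM), Alas1 (the rate-limiting enzyme of heme synthesis, 137.7 ± 72.9 and 137.1 ± 93.1 FPKM) and Por (the electron donor of cytochromes P450, 107.2 ± 18.4 and 153.6 ± 61.4 FPKM). Their log2 fold changes were -0.22, -0.16 and 0.43 (adjusted p = 0.937, 0.975 and 0.849 from limma). Like the clock genes, this list varied widely between mice, with a median SD within groups of 0.50 and 15 of 15 genes above the median of all genes tested. For the regulators the median was 0.19 and 9 of 17 were above it.

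The genes most like Dbp across the 12 mice were found by Pearson's r of group-centred log2 values against 10240 genes, as a description with no test. The highest were Uox (urate oxidase, r = 0.895), Il12rb1 (0.892), Ddx41 (0.879), Setd4 (0.872) and Ciart (0.87), the last a repressor of the clock. Ciart ranged from 1.87 to 13.6 FPKM across Con mice and from 0.39 (Exe 3) to 10.1 FPKM across Exe mice. The lowest were Arntl (-0.884), Sphk2 (-0.87), Vps72 (-0.868), Cir1 (-0.86) and Fcna (-0.856), so that Arntl was the lowest of all 10240 genes. Per3 stood at place 110, Nr1d2 at 196, Per2 at 251, Per1 at 303 and Cry2 at 583, counted from the highest r, and Nr1d1 at 2840.

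For Npas2 the highest r values were those of Vrk2 (0.927), Cd300e (0.906), D17H6S56E-5 (0.901), Pnp (0.895) and Birc5 (0.894). The lowest were Ddx41 (-0.942), Txndc5 (-0.919), Gpr180 (-0.918), Tef (-0.915) and Slc19a1 (-0.908). Nr1d2, Per3 and Cry2 were also near the low end, with r of -0.893, -0.865 and -0.846. Arntl (0.66) and Clock (0.657) stood at places 333 and 338 from the highest. With 12 mice and Npas2 under 0.4 FPKM, high values of r can be found among 10241 genes whatever their relation to it.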

How the data were processed

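Reads were filtered and mapped to GRCm39 with HISAT by the authors, who deposited FPKM per gene, to 2 decimals, with a file per mouse. The submitters' processing notes also name Bowtie2 and mm10, with no role; which tool and annotation gave the FPKM is not given in the sources used here. Summed FPKM ran from 735200 to 820107 over the mice. Reads per mouse are not given. A relative depth derived from the FPKM of 25 genes, which hold 2 decimals, lay between 0.989 and 1.016, and no result above rests on it.

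The members and lists were chosen with earlier results of these data known. Counts were not used. log2(FPKM + 1) was fitted in R 4.3.3 with limma 3.58.1 (trend) on genes with at least 1 FPKM in at least 6 mice, a fit tested on simulated data. Exact permutation tests enumerated all divisions of the mice (smallest p 0.00216), and correlations used 100000 permutations (Python 3.11.15, scipy 1.17.1). Named genes were the 10 members, listed genes past an unadjusted p of 0.05, the 3 most abundant of each list, and the 5 highest and lowest by likeness to Dbp and Npas2; Arntl pairs and ratios were added after the values were seen. Alternatives were other filters, pseudocounts, scaling, moderation, a replicate block, leaving out each mouse, an acute-phase covariate, and leaving out Con 1 and Exe 5. Promoters came from RefSeq tables of GRCm38.p6, matched by symbol; the files' build differs, so these coordinates were not joined to the data. The exact permutation results of the list of clock regulators are not reported here.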

Additional observations from a re-analysis of the deposited data

How the results depend on the processing

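Of 849 values recomputed under alternatives, 765 did not change direction or call, or moved by less than the spread, 33 changed sign, 18 lost a call, 13 gained one and 20 moved. For the 9 clock genes tested, no alternative gave an adjusted p of 0.05 or less from limma. Over all genes tested, 1 gene had an adjusted p of 0.05 or less without the filter (D630003M21Rik), and 0 did in the other alternatives. At an unadjusted p of 0.05, leaving out a mouse gave 418 (without Exe 2) to 905 genes (without Exe 5). Mice of the same number did not deviate together (r from -0.478 to 0.165, 1 of 6 pairs over 0.1). The labels do not say whether the numbers pair mice, and these r values cannot decide it. With the replicate block 567 genes passed an unadjusted p of 0.05 and 0 an adjusted p.

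Leaving out a mouse turned the sign of small differences, whose log2 values then ranged from -0.033 to 0.062 for Clock (also -0.033 without Con 1 and Exe 5), -0.086 to 0.023 for Nr1d2, -0.14 to 0.20 for Per2, -0.026 to 0.053 for Npas2, -0.166 to 0.054 for Nr1d2/Clock, -0.429 to 0.067 for Per3/Cry1 and -0.15 to 0.32 for Per1/Dbp.

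Pearson's r, leaving out each mouse, ranged from -0.897 to -0.51 for Dbp with Npas2, 0.324 to 0.888 for Dbp with Per3, 0.592 to 0.777 for Npas2 with Clock, 0.668 to 0.833 for Per1 with Per2, -0.131 to 0.011 for Nr1d1 with Nr1d2, -0.077 to 0.482 for Nr1d1 with Dbp, 0.388 to 0.803 for Arntl with Npas2, 0.413 to 0.693 for Arntl with Clock and -0.373 to 0.328 for Arntl with Nr1d1. Centred on the group mean, r was 0.685 for Dbp with Per3, 0.657 for Npas2 with Clock and 0.66 for Arntl with Npas2 (0.656 with quantile normalization), each then past an adjusted p of 0.05. With a pseudocount of 0.1, Dbp with Npas2 was at -0.662 and lost its call. Without the 2 farthest mice r was -0.075 for Nr1d1 with Npas2, 0.823 for Dbp with Per3, 0.464 for Per1 with Per2, 0.703 for Arntl with Clock and 0.365 for Arntl with Nr1d1. Within Con mice it was -0.232 for Nr1d1 with Npas2, -0.81 for Dbp with Npas2, 0.189 for Nr1d1 with Nr1d2, 0.696 for Per1 with Per2, -0.762 for Arntl with Dbp and 0.435 for Arntl with Nr1d1, and within Exe mice -0.663 for Dbp with Npas2. Groups of 6 give fewer permutations than 12 mice, and other causes were not tested. Reads per mouse are unknown, so no counting interval was given, and Npas2 is limited most.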
